A study of Gasterosteus aculeatus with 17 samples.

Results

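Fresh water was compared with marine water in the gills of three-spined sticklebacks (Gasterosteus aculeatus) of 2 populations, with population held constant. The comparison used all 17 of the 17 fish of the study, chosen by their labels: 9 in fresh water and 8 in marine water. The fish in fresh water were 5 marine fish moved there for 4 days and 4 freshwater fish kept there. The labels' protocol speaks of 4 fish per group for sequencing, and which of the 5 was additional is not stated. The fish in marine water were 4 marine fish kept there and 4 freshwater fish moved there for 4 days. All were males in breeding dress caught in the wild. The freshwater fish came from a lake and the marine ones from coastal sea, and the gills of a single fish made each library. Captivity was common to all 4 groups, since the kept fish were also held, in their native water. Polyadenylated RNA was sequenced and counted per gene.

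The gill is the main organ with which a bony fish holds its blood salts steady. In fresh water it takes up ions from dilute water, and in the sea it secretes the salt that the fish drinks and absorbs. Ion-transporting cells of the gill, the ionocytes, carry out both tasks with different sets of transporters, and sticklebacks are known for moving between the sea and fresh water. Which of these transporters changed is not reported here, because the gene IDs could not be paired with names: 0 of 22456 IDs matched the reference table. For the same reason the labelled tissue could not be checked against gill markers, and genes are given by ID, with 2 higher and 2 lower in fresh water, and all others as counts and ranges. In bulk tissue, fewer cells of a type and less RNA per cell cannot be told apart.

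The measured effect is the mean of 2 differences, each weighted equally: fresh minus marine water in marine fish, and fresh minus marine water in freshwater fish. Being moved lies on opposite sides of the 2 differences, because fresh water was the new water for marine fish and the home water for freshwater fish. An effect of being moved that was equal in both populations therefore cancels in this mean, though not in either difference alone. One that differed between the populations stays in the mean, where it cannot be told apart from an effect of water. Genes said below to change with water carry this limit. The standard error had a median of 0.16 log2 units for the mean effect over the 18238 genes tested, against 0.23 for the water effect in marine fish and 0.23 in freshwater fish. All groups shared each gene's estimate of spread, so these equal errors do not measure the spread within each population.

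Depth differed between the waters, and this touches each result below. Marine fish in fresh water had 6932688 to 16108405 counts, below all marine fish in marine water (17993109 to 19450343). Freshwater fish had 23609866 to 28960967 counts in fresh water and 23736661 to 27949237 in marine water, which overlapped. The mean difference was -4173830 counts, fresh minus marine water (exact permutation test within populations, two-sided, adjusted p = 0.033 over 7 library measures). It missed the threshold in 10 of 17 repeats that left out 1 fish. The part of depth in the gene results was examined by thinning every library to 6932688 counts, called equal depth in the text.

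For the mean of both populations, fresh water went with more and larger rises than falls among the called genes. Of the 18238 genes tested, 368 (2.02%) changed with water, 259 (1.42%) higher and 109 (0.598%) lower in fresh water (edgeR quasi-likelihood test, Benjamini-Hochberg adjusted p below 0.05). The package's default setting called 324 genes, 234 higher and 90 lower, and the setting reported here was taken after counts under 10 settings had been seen. It gave the most calls of the 10, which ran between 310 and 368. The rises had a median of 0.97 log2 units and a middle range of 0.67 to 1.45, against a median of -0.57 for the falls. More than a 2-fold change was found for 128 rises and 24 falls, and more than a 4-fold change for 31 rises and 2 falls. Over all tested genes the median change was 0.01 log2 units, with a median absolute change of 0.16, and 52.1% of genes lay above 0. Before adjustment 2784 genes (15.3%) had a p below 0.05, of which 1474 were higher and 1310 lower in fresh water. The surplus of rises among the called genes (70.4%) was seen under each of 3 scalings, at 72.1% with DESeq2 size factors and 65.7% with upper-quartile scaling, and was 73.4% at equal depth.

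The count of 368 depended on single fish and on the test. It was 561 without marine fish 5 in fresh water. It was 218 and 225 without marine fish 2 and 3 in marine water, 202 without freshwater fish 1 in fresh water, and 238 and 235 without freshwater fish 3 and 4 in marine water. DESeq2 called 821 genes and limma voom 534, and at equal depth edgeR called 282. In each of the 17 repeats that left out 1 fish, 183 of the 368 genes were called with the same direction, 147 higher and 36 lower in fresh water. These 183 had a median absolute change of 1.09 log2 units. All of the 368 genes kept their direction in each such repeat, apart from 2 that were not tested when marine fish 4 in fresh water was left out.

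**Figure D1:**
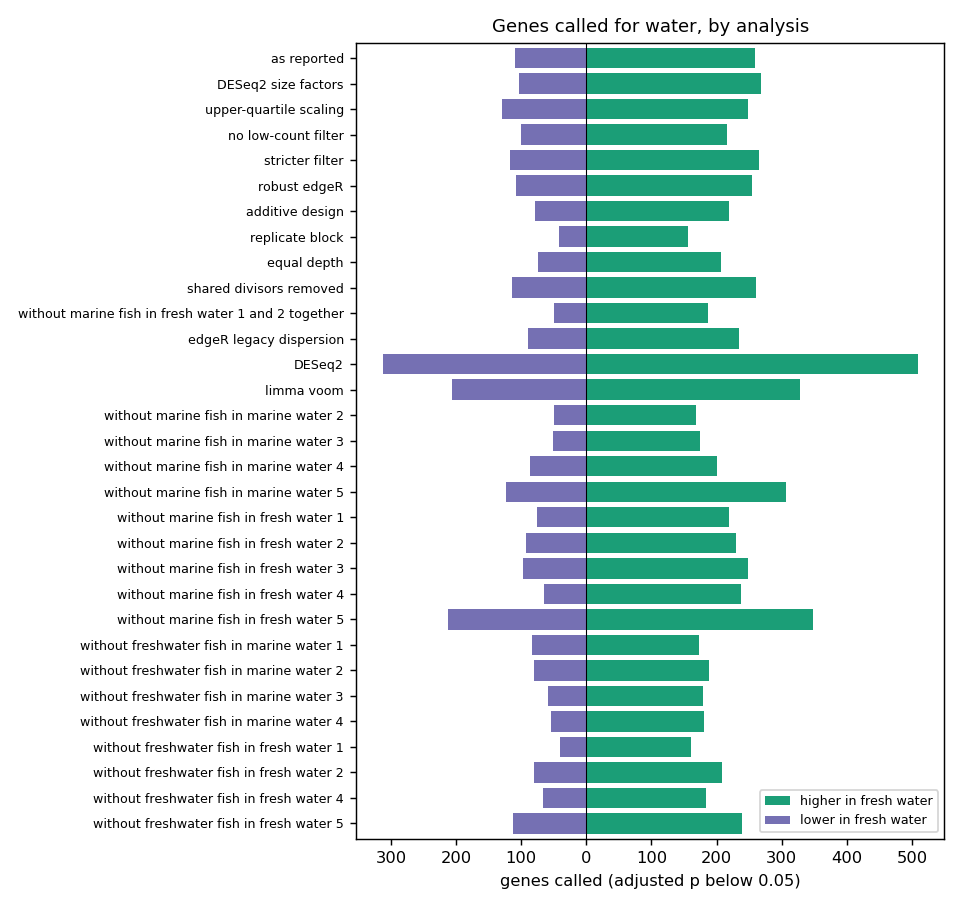
Number of genes called for water (x axis, edgeR adjusted p below 0.05 unless another tool is named) in the reported analysis and in each alternative (y axis), with genes higher in fresh water to the right of 0 and genes lower to the left; edgeR legacy dispersion is the package's default setting. Every bar is for the mean effect over both populations, fitted on all or most of the same fish, so the bars are not independent. Rises outnumbered falls in every analysis shown, from 61.4% of the calls with limma voom to 79.7% without freshwater fish 1 in fresh water.

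The 4 genes given by ID had the largest rises and falls among genes averaging 5 CPM or more in the higher water and no overlap of the waters within either population. CPM are read counts scaled to a common library size, with correction for composition. A total of 49 rises and 14 falls met this rule, and its demand for separate groups fixes the direction within each population, so the values are a description of the called genes. All 4 passed the threshold in each of 30 alternative analyses, which their choice from the same fish favours.

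ENSGACG00000005001 had the largest rise by this rule. In marine fish it was at 2.87, 3.33, 8.36, 4.15 and 1.32 CPM in fresh water (fish 1 to 5), against 0.856, 0.344, 0.429 and 0.304 CPM in marine water (fish 2 to 5). In freshwater fish it was at 25.1, 4.60, 19.7 and 21.8 CPM in fresh water (fish 1, 2, 4 and 5), against 1.84, 0.0704, 1.29 and 0.658 CPM in marine water (fish 1 to 4). Every fish in fresh water lay above every marine-water fish of its own population, and in fresh water freshwater fish 1, 4 and 5 lay above all 5 marine fish, with freshwater fish 2 below marine fish 3. The mean effect was 3.67 log2 units (SE 0.48, edgeR adjusted p = 6.4e-04), made of 3.14 (SE 0.76) in marine fish and 4.20 (SE 0.62) in freshwater fish. The populations differed by -1.06 in this effect (SE 1.05), which missed the threshold (edgeR adjusted p = 0.63). Its counts were low in marine water, 6 to 14 per fish in marine fish and 2 to 56 in freshwater fish, so the low values carry a large counting error. Marine fish in fresh water had few counts too, at 26, 22, 130, 46 and 12 (fish 1 to 5). Fish 5 there had fewer counts than marine fish 2 in marine water (14), so its higher CPM rests on scaling for depth. In fresh water the gene averaged 4.01 CPM in marine fish, under the 5 CPM of the rule, and 17.8 CPM in freshwater fish. All its counts were even numbers, and 27.9% of genes with over 200 counts likewise had a divisor common to all fish.

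ENSGACG00000002446 was a well-counted rise of nearly equal size in both populations. Marine fish in fresh water were at 627, 609, 688, 439 and 184 CPM (fish 1 to 5), against 89.2, 91.6, 91.1 and 179 CPM in marine water (fish 2 to 5). Freshwater fish in fresh water were at 943, 835, 1115 and 821 CPM (fish 1, 2, 4 and 5), against 118, 183, 240 and 169 CPM in marine water (fish 1 to 4). The waters were far apart except in marine fish, where fish 5 in fresh water and fish 5 in marine water came within a few CPM of each other. The mean effect was 2.28 log2 units (SE 0.24, edgeR adjusted p = 1.4e-04), with 2.18 (SE 0.33) in marine and 2.39 (SE 0.34) in freshwater fish. The effects differed by -0.21 log2 units between the populations (SE 0.45, edgeR adjusted p = 0.84).

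ENSGACG00000009233 had the largest fall by this rule, at different levels in the populations. It was at 5.19, 5.76, 10.4, 3.51 and 11.0 CPM in marine fish in fresh water (fish 1 to 5), against 32.5, 21.7, 36.0 and 13.0 CPM in marine water (fish 2 to 5). In freshwater fish it was at 1.73, 3.21, 2.23 and 4.55 CPM in fresh water (fish 1, 2, 4 and 5), against 4.57, 7.99, 9.72 and 5.03 CPM in marine water (fish 1 to 4). The gap between the waters was narrow in freshwater fish, where the highest fish in fresh water and the lowest in marine water nearly met. The mean effect was -1.52 log2 units (SE 0.27, edgeR adjusted p = 0.0064), with -1.83 (SE 0.37) in marine fish. In freshwater fish alone the effect of -1.22 (SE 0.40) missed the threshold (edgeR adjusted p = 0.24), and the difference of the effects did too (-0.61, SE 0.54, edgeR adjusted p = 0.58).

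ENSGACG00000009520 fell by a modest amount with little spread. Marine fish in fresh water were at 49.0, 40.6, 71.9, 56.2 and 62.5 CPM (fish 1 to 5), against 94.1, 100, 101 and 84.0 CPM in marine water (fish 2 to 5). Freshwater fish in fresh water were at 72.8, 73.2, 60.8 and 68.4 CPM (fish 1, 2, 4 and 5), against 122, 109, 132 and 118 CPM in marine water (fish 1 to 4). The 2 waters were separate in each population, and freshwater fish had the higher mean in each water. The mean effect was -0.78 log2 units (SE 0.10, edgeR adjusted p = 4.5e-04), with -0.75 (SE 0.14) in marine and -0.81 (SE 0.14) in freshwater fish and a difference of 0.05 (SE 0.20, edgeR adjusted p = 0.92).

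**Figure D2:**
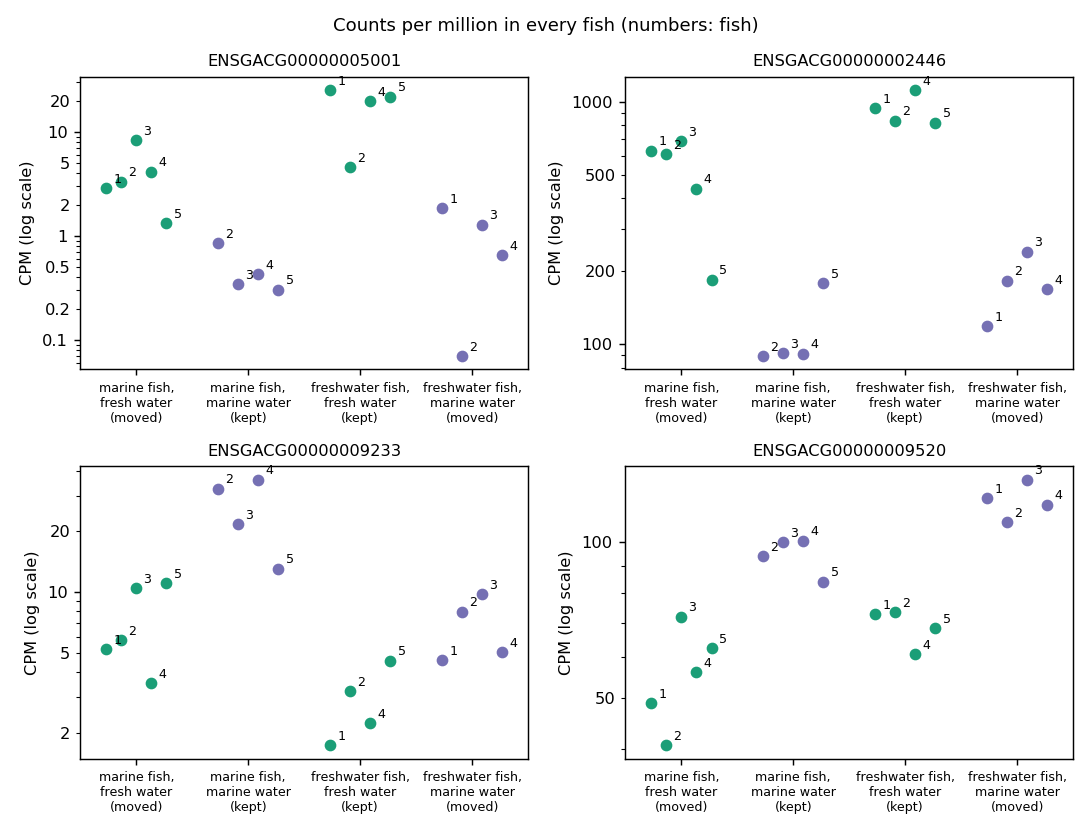
CPM (log scale) of the 4 genes in each fish, 1 dot per fish with its number, in fresh water (green) and marine water (purple) for both populations. Within each population the waters do not overlap for any of the 4 genes, and marine fish 5 in fresh water is the fish nearest to the marine-water group of its population for ENSGACG00000005001 (1.32 CPM), ENSGACG00000002446 (184 CPM) and ENSGACG00000009233 (11.0 CPM).

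How the 368 genes behaved within each population was described next. The mean effect is built from both differences, so a shared direction is largely fixed by the selection and supports nothing. In all, 365 of the 368 had the same direction in both populations, and 2 rises and 1 fall had the opposite sign in 1 of them. The median change of the rises was 0.90 log2 units in marine fish and 0.96 in freshwater fish, and of the falls -0.68 and -0.41. The change was larger in marine fish for 114 rises and 74 falls, and larger in freshwater fish for 145 rises and 35 falls. An unadjusted p below 0.05 was reached in both populations by 256 of the genes, in marine fish but not freshwater fish by 67, in freshwater but not marine fish by 45, and in neither by 0.

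Many of these genes had not been called in either population by itself. In the same fit 524 genes (2.87%) were called in marine fish and 137 (0.751%) in freshwater fish. These counts leaned on single fish, at 0 to 1222 in marine fish and 37 to 180 in freshwater fish when 1 fish was left out. Their order depended on the test: DESeq2 called 1733 in marine fish and 347 in freshwater fish, and limma voom 244 and 627. Which population responded at more genes is therefore not settled by these counts. The surplus of rises was absent in marine fish alone in the reported fit, with 262 genes higher and 262 lower in fresh water. Freshwater fish had 115 higher and 22 lower. In marine fish limma voom called 94 higher and 150 lower, and DESeq2 958 higher and 775 lower. No test of rises against falls was made. Of the 368, 44 were called in both, 125 in marine fish alone, 69 in freshwater fish alone, and 130 in neither. Among the 130 were 94 rises and 36 falls, with a median absolute change of 0.70 log2 units, against 1.68 for the 44 called in both. Being called in 1 population alone does not show a difference between populations, which needs the interaction test.

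**Figure D3:**
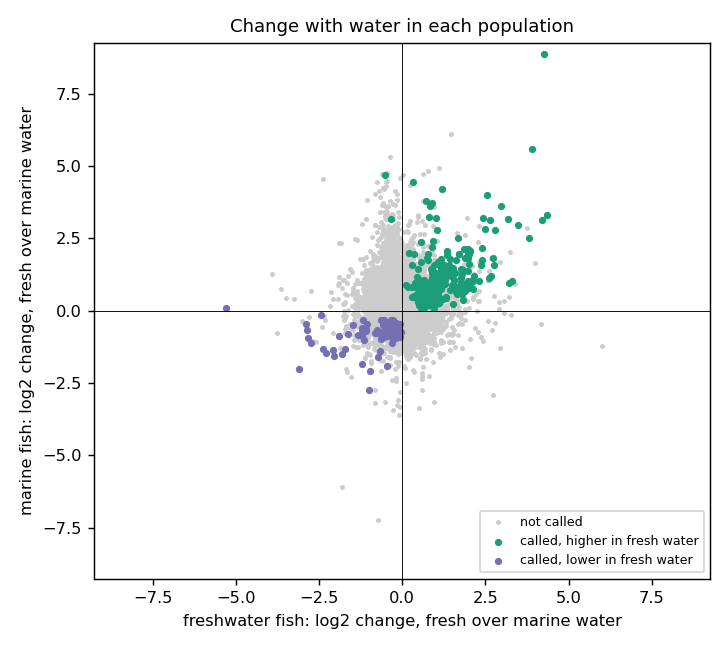
Log2 change, fresh over marine water, in freshwater fish (x axis) and marine fish (y axis), 1 point per gene, with called rises in green, called falls in purple and uncalled genes in grey (1 uncalled gene lies outside the axes). Called rises sit in the upper right and called falls in the lower left, which their selection on the mean of both axes favours, and 1 fall lies on the horizontal line, at -5.31 in freshwater fish and 0.08 in marine fish.

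The interaction of population and water, which asks whether the 2 effects differ, passed for 2 genes (0.011%), both given here after their values were seen. The count depended on the test and on single fish, at 1 under edgeR's default setting, 8 with limma voom, 241 with DESeq2 and 24 without marine fish 1 in fresh water. It equals, apart from a factor, the mean effect of being moved, so a difference between populations and a shared effect of being moved cannot be told apart in it. ENSGACG00000000730 had the smallest p of all genes for the mean effect of water (-2.61 log2 units, SE 0.23, edgeR adjusted p = 2.7e-05). Of the 2 populations, the effect passed in freshwater fish (-5.31, SE 0.37) and was 0.08 in marine fish (SE 0.25). It was at 0.161 ± 0.121 CPM in freshwater fish in fresh water and 6.41 ± 0.799 CPM in marine water (SD, n = 4 each). Its counts in freshwater fish in fresh water were 8, 2, 2 and 4 (fish 1, 2, 4 and 5), so the size of its fall carries a large counting error. In marine fish it was at 4.84 ± 1.55 CPM in fresh water (SD, n = 5) and 4.54 ± 1.21 CPM in marine water (n = 4), so that the effects differed by 5.39 on the log2 scale (SE 0.47; edgeR adjusted p = 1.9e-05). ENSGACG00000017542 had almost no mean effect (-0.03 log2 units, SE 0.14), with 0.88 (SE 0.21) in marine and -0.95 (SE 0.19) in freshwater fish. Its interaction lay close to the threshold (edgeR adjusted p = 0.046). Of 29 alternatives, 11 called it, and 29 called that of ENSGACG00000000730. Of the 368 genes, 89 (24.2%) had an unadjusted interaction p below 0.05, where 3140 of all tested genes (17.2%) did. The effect was larger in marine fish for 45 of the 89 and larger in freshwater fish for 44. A called mean effect is therefore a statement on the average of the populations, and not on each.

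Over all tested genes, without regard to the test of the mean, the 2 populations were set side by side. They share no fish, but they share each gene's estimate of spread. An unadjusted p below 0.05 with the same direction in both was found for 360 genes (1.97%), 253 higher and 107 lower in fresh water. With opposite directions it was found for 102 genes (0.559%), 34 higher and 68 lower in moved than in kept fish. Values of the waters did not overlap within marine fish for 5.54% of genes and within freshwater fish for 7.91%. Smaller groups separate more easily by chance, and the groups were 5 against 4 marine fish and 4 against 4 freshwater fish. These shares, and the counts below of separation within 1 population, are therefore not directly comparable between populations. In both populations with the same direction they did not overlap for 79 genes (0.433%), 59 higher (0.324%) and 20 lower (0.11%) in fresh water, and in both with opposite directions for 11 genes (0.0603%). Of the 79, 66 were among the 368. Separation was found within freshwater fish but not marine fish for another 196 of the 368, within marine fish but not freshwater fish for 75, and within neither for 31. The 368 were called from the same values, which favours separation among them. These classes were not counted over all tested genes, so they are a description.

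Whether a fish that took no part in choosing the genes showed the same pattern was measured by leaving out each fish in turn. Genes were called from the other 16 fish. The left-out fish was then placed, at each called gene, on the fresh or the marine side of the midpoint between the means of the remaining fish of its population in the 2 waters. For freshwater fish in fresh water, 95.0%, 75.0%, 86.1% and 62.7% of the called genes lay on the fresh side (fish 1, 2, 4 and 5). For freshwater fish in marine water these shares were 21.9%, 18.1%, 9.66% and 8.94% (fish 1 to 4), so the waters did not overlap. For marine fish in fresh water they were 83.7%, 79.2%, 73.0%, 74.3% and 28.3% (fish 1 to 5), against 13.3%, 12.9%, 27.2% and 39.0% in marine water (fish 2 to 5). Thus 16 of the 17 fish lay on the side of their own water at most of the genes, and marine fish 5 in fresh water did not. Over all tested genes, with the direction fitted from the other fish, the shares ran between 44.6% and 57.6% in fresh water and between 37.2% and 51.2% in marine water. The called genes numbered 201 to 561 depending on the fish left out, and no test was made of these shares.

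**Figure D4:**
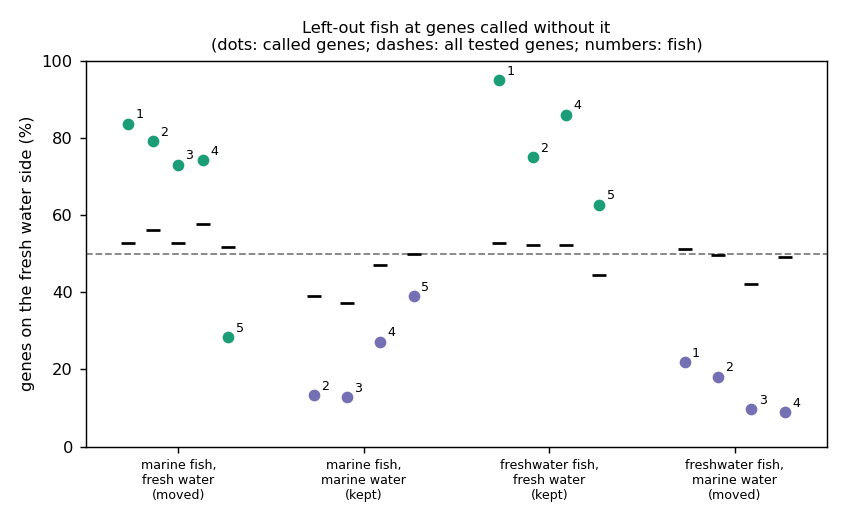
Share of genes (y axis, %) at which a left-out fish lay on the fresh water side, for genes called without that fish (dots, numbered by fish) and for all tested genes (dashes), by group. Dots of fish in fresh water (green) lie above 62% except marine fish 5 at 28.3%, and dots of fish in marine water (purple) lie below 40%.

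Rises and falls were also described apart, with no test of a difference between them. For rises, the share on the fresh side was 73.1% to 95.7% in freshwater fish in fresh water and 5.202% to 11.2% in marine water. In marine fish it was 70.2% to 83.6% in fresh water for fish 1 to 4 and 26.7% for fish 5, against 12.4% to 42.7% in marine water. For falls, freshwater fish overlapped between the waters, at 40.7% to 92.5% in fresh water and 5.08% to 56.6% in marine water. Marine fish showed 68.0% to 89.2% for falls in fresh water (fish 1 to 4) and 31.0% for fish 5, against 13.7% to 37.9% in marine water. The median gap between the waters at falls was 0.45 to 0.56 log2 units among freshwater fish and 0.68 to 0.82 among marine fish, so the midpoint lay close to both groups in freshwater fish.

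The size of the change was then followed through the fish. These values come from the genes selected on the same fish and are a description. Over the 31 rises of more than 4-fold, the median distance from the marine-water mean of the population was 2.55, 3.08, 2.55, 2.51 and 0.54 log2 units in marine fish in fresh water (fish 1 to 5). It was 2.48, 1.70, 2.41 and 2.25 in freshwater fish in fresh water (fish 1, 2, 4 and 5), and marine-water fish lay between -0.27 and 0.08. Marine-water fish make up the mean they are compared with, so they lie near it by construction. Of these 31 genes 21 had an unadjusted p below 0.05 in each population, 3 had no overlap in both, and 18 were called in every repeat without 1 fish. Over all tested genes, 1.97% had such a p in both with the same direction. No overlap in both, with higher values in fresh water, was found for 0.324%. The choice of the genes on the mean effect favours these counts. More than a 4-fold change in each population was found for 16 rises and 1 fall. The highest value of the 31 genes was most often in marine fish 1 (12 genes) and freshwater fish 1 (8 genes) in fresh water.

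The 97 rises of 2- to 4-fold were more even. Their median was 1.23 to 1.62 log2 units in marine fish 1 to 4 in fresh water and 0.49 in fish 5, and 1.15 to 1.59 in freshwater fish in fresh water. Of the 97, 81 had an unadjusted p below 0.05 in each population and 26 did not overlap in both. In every repeat without 1 fish 75 were called. The choice of the genes favours these counts too. The 131 rises under 2-fold had medians of 0.53 to 0.82 (marine fish 1 to 4) and 0.18 (fish 5), and 0.60 to 0.81 in freshwater fish. Repeats without 1 fish called 54 of these 131 each time.

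Among the falls, 24 were larger than 2-fold. Their median was -1.15, -2.04, -1.45, -1.84 and -0.23 log2 units in marine fish in fresh water (fish 1 to 5), and -1.92, -1.75, -1.65 and -1.52 in freshwater fish in fresh water (fish 1, 2, 4 and 5). For the 85 falls under 2-fold the median was -0.55 to -0.83 in marine fish 1 to 4, -0.44 in fish 5, and -0.23 to -0.45 in freshwater fish in fresh water. Called in every repeat without 1 fish were 10 of the 24 and 26 of the 85. In each of the 5 size classes, marine fish 5 in fresh water lay nearer to the marine-water mean than did marine fish 1 to 4.

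**Figure D5:**
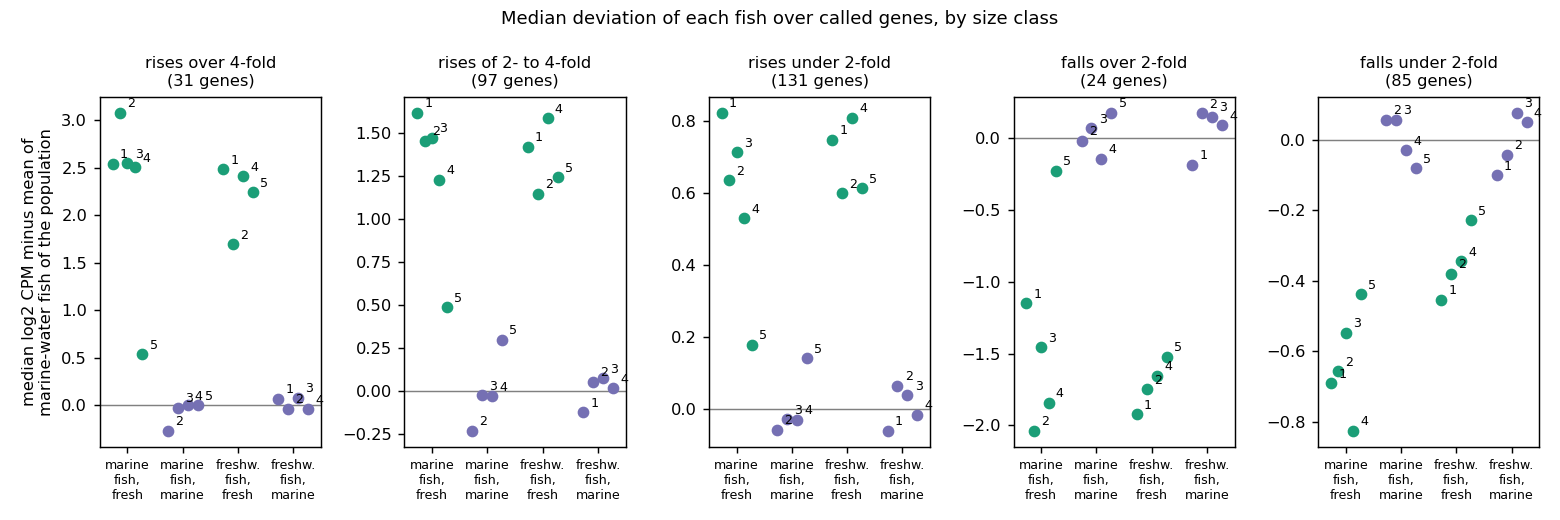
Median log2 CPM of each fish over the called genes of a size class, minus the mean of marine-water fish of its population (y axis), in 5 panels from rises over 4-fold to falls under 2-fold, with fish in fresh water in green and fish in marine water in purple. Marine-water fish make up the mean that is subtracted, so they lie near it by construction. Marine fish 5 in fresh water is at 0.54 in the panel of largest rises, where the other fish in fresh water are between 1.70 and 3.08.

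Calls were spread over all levels of counts and were more frequent among well-counted genes, where counting error is smaller, though its part was not tested. They made up 0.919% of the 5441 tested genes under a mean of 5 CPM, 2.06% of the 9584 genes at 5 to 50 CPM, 3.54% of the 2936 genes at 50 to 500 CPM and 6.14% of the 277 genes at 500 CPM or more. At 500 CPM or more there were 13 rises, with a median of 1.24 log2 units, and 4 falls, with a median absolute change of 0.56. None of the 368 genes (0) was at 0 counts in all fish of a water. Together the 259 rises held 2.20% to 3.68% of all counts in marine fish in fresh water, against 1.39% to 1.73% in marine water. In freshwater fish they held 3.81% to 4.97% in fresh water, against 1.73% to 1.93% in marine water. The direction of these shares is largely fixed by choosing the rises in the same fish, so they are a description. For 208 of the rises the highest group mean was that of freshwater fish in fresh water, and for 51 it was that of marine fish in fresh water. That it was a group in fresh water is largely fixed by the choice of rises. The split between the populations was not counted over all tested genes, so it is not shown to be particular to the rises.

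At the level of whole libraries, the largest axis separated the populations, which also differed in depth without overlap. The first principal component of log2 CPM (25.7% of the variance) averaged -41.3 in marine and 44.0 in freshwater fish in fresh water, against -32.0 and 39.7 in marine water. Its mean difference between the waters was -2.46 (exact permutation test within populations, two-sided, adjusted p = 0.76). At equal depth it averaged -36.7 and 40.9 in fresh water, against -32.9 and 37.9 in marine water. The part of depth in this axis was not tested. The second component (17.3% of the variance) averaged 39.0 in marine fish in marine water and -18.1 in marine fish in fresh water. It averaged -3.63 in freshwater fish in fresh water and -12.7 in marine water. Its difference of -24.0 missed the threshold (exact permutation test, adjusted p = 0.18). Component 4 (-19.8, adjusted p = 0.14) and genes detected (-293, adjusted p = 0.15) missed it too in this test. The third component (9.81% of the variance) differed, by 27.1 (exact permutation test, adjusted p = 0.020). In freshwater fish its scores were 1.78 to 10.33 in fresh water and -11.4 to -6.97 in marine water. In marine fish they overlapped, at -25.9 to 87.4 in fresh water and -38.2 to -9.72 in marine water, and the highest score was that of fish 1. The 50 most counted genes of each fish held 24.9% to 29.0% of counts in marine fish in fresh water against 23.5% to 26.2% in marine water. In freshwater fish they held 23.9% to 24.7% in fresh water against 21.9% to 22.8% in marine water, a mean difference of 1.82 percentage points (exact permutation test, adjusted p = 0.020). Of the 50 genes with the highest mean over all fish 1 was called for water. Calls made up 2.02% of all tested genes and 6.14% of those at 500 CPM or more. The third component missed the threshold without marine fish 2, 3, 4 or 5 in marine water, and the share of the top genes without marine fish 3, 4 or 5 in marine water. Components were not computed anew in these repeats, so the fish left out still shaped the scores. At equal depth the third component and the share of the top genes both passed (adjusted p = 0.0092 each, exact permutation test).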

How the data were processed

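Raw read counts, as deposited, cover 22456 genes in 17 fish. CASAVA 1.8.2 and TopHat2 2.1.0 are named in the submitters' processing notes. The tool that counted reads, its genome build and its annotation are not stated in those notes or in the labels, and the handling of strand and of reads shared between gene copies is not known. Of 17449 genes with over 200 counts, 27.9% had counts sharing a divisor in all fish (30.8% of the called genes), the source of which is not given.

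Groups came from the labels. Genes were kept with filterByExpr (minimum count 10), which left out 3554 genes with counts, libraries were scaled by TMM, and the 4 group means were fitted with edgeR 4.0.16 (glmQLFit with legacy = FALSE). This fit was not the first one run. The package default (legacy = TRUE) was run first and called 324 genes for water, 541 in marine fish, 105 in freshwater fish and 1 for the interaction, which did not match an earlier analysis of these data. In all, 10 combinations of library-size handling, dispersion and this option were run, the default among them, giving 310 to 368 genes for water, 524 to 655 in marine fish, 99 to 137 in freshwater fish and 1 to 2 for the interaction. The combination that matched the earlier analysis was taken after these counts were seen, and it has the most calls for water of the 10. The mean of the 2 water differences was tested, with Benjamini-Hochberg adjustment over all genes. Standard errors are the log2 change divided by the square root of F. Log2 CPM used a prior count of 2. No 2 fish of a group were alike within counting error (28 pairs, chi-square over its degrees of freedom 34.0 to 142). Labels name individual fish, so p-values measure the spread between fish within groups. Anything shared by all fish of a group cannot be told apart from the group. The comparison, the tests and the rule for genes given by ID (in the report) were chosen with earlier results of these data known, and the left-out positions, size classes, CPM classes and counts of same and opposite directions after seeing the data. Planned gene lists could not be used without gene names. Fish numbers are shared between groups but mark separate animals. The alternatives used DESeq2 1.42.0 and limma 3.58.1, with R 4.3.3, Python 3.11.15 and matplotlib 3.10.9. Library measures were compared by exact permutation within populations (8820 arrangements, smallest p 0.000113).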

Additional observations from a re-analysis of the deposited data

Results flagged for a closer look

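Of 64 sets of fish of 1 group examined for a fish far from the others, 4 held one. Chance gives about 1 in 20, so this number is near what chance alone gives. The sets are not independent, since the rises are part of the called genes. Marine fish 5 in fresh water stood apart for the share of called genes on the fresh water side (28.3%, and 26.7% for rises alone). Its library had 9090093 counts, between those of marine fish 2 and 1 in fresh water. Without it 561 genes were called for water, and whether its state or its handling differed was not tested. Marine fish 5 in marine water stood apart for ENSGACG00000002446, at 179 CPM. Freshwater fish 1 in fresh water stood apart for the share of counts in the 50 most counted genes, at 24.7%. The interaction of population and water passed for ENSGACG00000000730 (5.39 log2 units), also in each of 29 alternatives. It passed for ENSGACG00000017542 (1.83 log2 units, edgeR adjusted p = 0.046) and again in 11 of 29 alternatives, and its adjusted p over the 29 ran between 5.3e-06 (DESeq2) and 0.20 (replicate block, edgeR). Being moved is opposite in the populations, and a shared effect of being moved cannot be told apart from this.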

How the results depend on the processing

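The 4 genes given by ID kept their direction and passed in all 30 alternatives, which their choice from the same fish favours. The count for water (368) was between 282 and 534 in the alternatives with all fish other than the replicate block (198) and DESeq2 (821), was 237 without marine fish 1 and 2 in fresh water together, and ran between 202 and 561 when 1 fish was left out. With the population and water terms alone (additive design) it was 298, and with edgeR's default dispersion setting (legacy = TRUE), run first and then replaced after its counts were seen, 324. The count in marine fish was 0 with the replicate block, 105 without marine fish 1 and 2 together, 1733 with DESeq2 and 244 with limma voom, and 0 to 1222 without 1 fish. In freshwater fish it was 347 with DESeq2, 627 with limma voom and 37 to 180 without 1 fish. The interaction called 1 gene without the low-count filter, with robust edgeR, with the replicate block and with the default setting, 8 with limma voom, 241 with DESeq2, 26 without marine fish 1 and 2 together, and 1 to 24 without 1 fish. The cause of these shifts was not tested. Not every pair of fish with the same number deviated together (r -0.27 to 0.23 over 21 pairs, 5 of them over 0.1), so the number was not taken as a pairing. Among marine fish, 3 of 4 such pairs had r over 0.1 (-0.19 to 0.23), and 3 of 4 in fresh water and 2 of 4 in marine water correlated best with their own number. The replicate block kept 192 of the 368 genes and called 198 (156 higher, 42 lower). Without 1 fish, the mean differences between the waters were -4856000 to -3709040 for total counts, -385.5 to -162.9 for genes detected, 18.3 to 32.5 and -27.5 to -15.8 for the components 3 and 4, and 1.48 to 2.095 percentage points for the share of the 50 most counted genes. The component scores in these repeats were those computed from all fish. Genes with few counts are limited by depth in marine fish in fresh water.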
